A study of Rattus norvegicus with 4 samples.

Results

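The genes described here act at the DNA replication fork. They were selected by gene name as the fork protection complex (Tipin, the similar gene Tipinl1, Timeless and Clspn), the replisome linker Wdhd1, and the checkpoint genes Atr, Atrip and Chek1. Of the 8 names, 7 had a row among the 15172 genes of the count table, and all 7 passed the filter on low counts. Chek1, which encodes checkpoint kinase 1, was not analysed here. RNA was measured in rat INS-1 832/13 β-cells, an insulinoma line that senses glucose and secretes insulin. Cells of both groups received siRNA for 36 h with the same transfection reagent. The siTbk1 group (2 samples) received a pool of siRNAs against Tbk1, which encodes TANK-binding kinase 1, and the siScramble group (2 samples) a non-targeting siRNA. The samples of each group carry the replicate numbers 2 and 3, and because nothing states that they came from separate cultures, the p-values measure the spread between these samples, which may be technical.

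During S phase the replicative helicase unwinds DNA ahead of the polymerases. TIMELESS and TIPIN travel with it as a pair, keep helicase and polymerases coupled when a fork pauses, and together with claspin (Clspn) pass the stress signal on. The signal itself comes from ATR, a kinase that its partner ATRIP brings to single-stranded DNA coated with RPA, and which activates checkpoint kinase 1 through claspin.

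Tbk1 mRNA was checked first. Its normalized count measured 2315 and 2261 in siScramble cells, and 510 and 575 in siTbk1 cells, a log2 fold change of −2.08 (SE 0.076, adjusted p = 3.7e-08). All adjusted p-values here come from the quasi-likelihood test of edgeR, corrected by Benjamini-Hochberg over all 13953 tested genes (n = 2 per group). Pairs of values are given in the order of replicates 2 and 3. A normalized count is a count scaled to the mean library size of the 4 samples, whose totals lay between 38428926 and 47759013. A gene is said to have risen or fallen where its adjusted p was under 0.05, and is called where it also changed by at least 1.5-fold. At this limit 4.81% of the tested genes were called higher and 6.18% lower, while 24.4% rose and 24.8% fell by adjusted p alone. All 12 β-cell markers had a row, and their summed level was 20648 and 21690 CPM (counts per 1000000) in siScramble against 17370 and 15677 CPM in siTbk1. Of these markers 3 rose, 6 fell and 3 did not pass. Ins1 was the largest of them, at 10383 and 11091 CPM in siScramble and 7520 and 6244 CPM in siTbk1. These Ins1 values are scaled as in the test, whereas the summed levels are relative to the library totals, so Ins1 is not an exact part of the sum. Of 12 markers of other islet, exocrine and stromal cells 1 had a row, the glucagon gene Gcg, at 1406 and 1341 CPM in siScramble and 803 and 862 CPM in siTbk1. The part of this shift in the results below was not tested. In bulk RNA, a change in the share of cells that express a gene and a change in RNA per cell cannot be told apart.

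Of the 7 genes, the Tipin pair was called higher, Atr rose by less than 1.5-fold, Atrip was called lower as its own row, and Timeless, Clspn and Wdhd1 did not pass the test. In numbers, 2 were called higher and 1 lower, beside 4.81% and 6.18% of all tested genes. By adjusted p alone 3 rose and 1 fell, beside 24.4% and 24.8% of all tested genes. The 2 called higher are Tipin and Tipinl1, whose rows share reads, as described below, so they are not separate observations. The counts and the median in this paragraph nevertheless take them as 2 genes. The 3 that did not pass had log2 fold changes between 0.080 and 0.14. The median over the 7 genes was 0.14 on the log2 scale, beside 0.0071 over all tested genes. Both siTbk1 samples lay above both siScramble samples for 5 genes and below them for 1 gene. Over all tested genes such groups without overlap made up 38.7% of genes in the higher and 37.9% in the lower direction, so with 2 samples per group a lack of overlap is common.

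**Figure D1:**
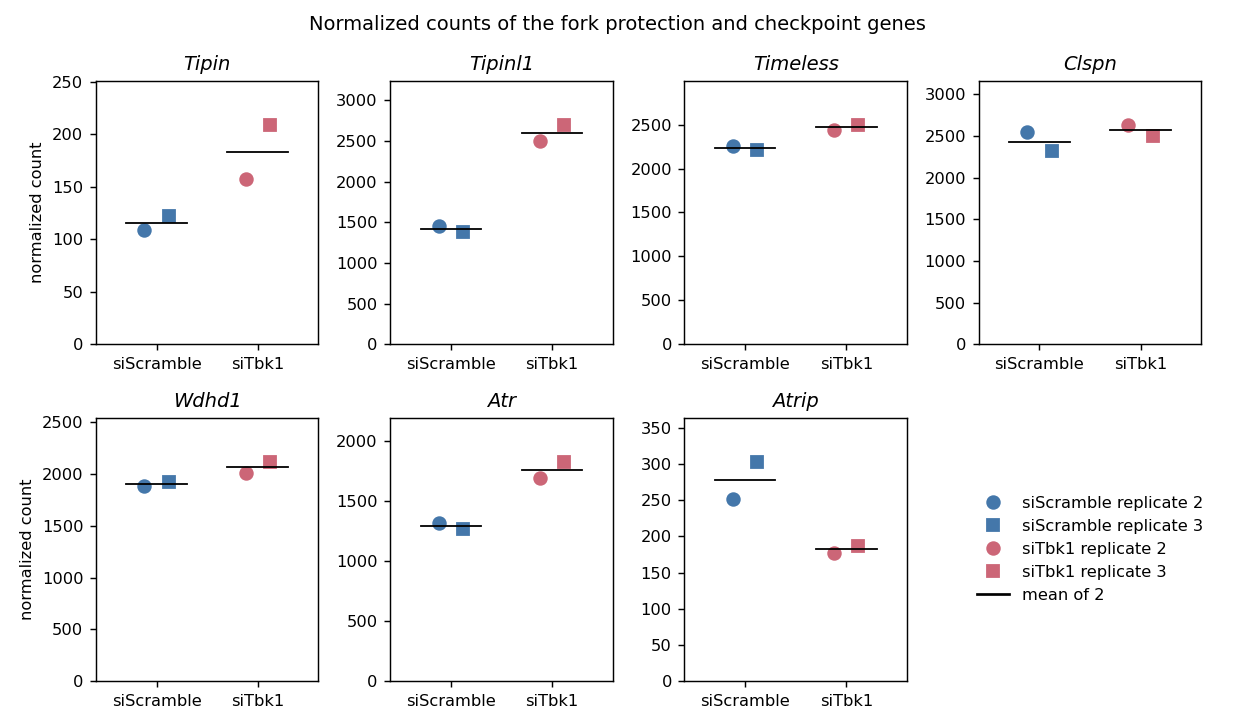
Normalized count (vertical axis, starting at 0 and scaled separately for each gene) in each library, with circles for replicate 2, squares for replicate 3 and a line at the mean of the 2 samples. Tipin, Tipinl1 and Atr lie higher in both siTbk1 samples and Atrip lies lower, while the groups overlap for Clspn.

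Tipin encodes the TIMELESS-interacting protein. Its row lies at chr8:69753373-69768306 on the plus strand of rn6, the build that the submitters' processing notes name, and spans 14934 bases with introns. Tipinl1, the similar gene, spans 1179 bases at chr5:173744-174922 on the minus strand. RefSeq places a gene of the name Tipinl1 on chromosome 9 of the later build GRCr8. Whether it is the same locus as the counted row was not tested, so the Tipinl1 stretch below may belong to another copy. To show how the starts of these genes and of Atrip differ, stretches just before the annotated RefSeq start are printed 5′ to 3′ on the gene's strand, with matches to short promoter words in capitals. The words searched on both strands of the 250 bases before each start were 4 E2F-type words (TTTCCCGC, TTTGGCGC, TTTCGCGC and TTTGCCGC), which belong to S phase promoters, and CCAAT, the core of NF-Y sites. The 2 kinds of word share no match here, since no window of the 7 genes held both.
Tipin, GRCr8 chr8:73676036-73676090, plus strand, capitals at −31 to −24 (TTTGGCGC on the opposite strand): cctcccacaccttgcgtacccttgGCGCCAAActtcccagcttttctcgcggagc
Tipinl1, GRCr8 chr9:120994280-120994332, minus strand, capitals at −32 to −28: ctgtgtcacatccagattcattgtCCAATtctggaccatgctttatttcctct
Atrip, GRCr8 chr8:118600945-118600991, minus strand, capitals at −23 to −19 (CCAAT on the opposite strand): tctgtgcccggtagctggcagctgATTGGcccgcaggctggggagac

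Among the 7 genes an E2F-type word stood in 1 window, that of Tipin, and CCAAT stood in 4 windows, those of Clspn, Atr, Atrip and Tipinl1. Over 9691 tested genes with a RefSeq promoter, 3.41% held an E2F-type word and 35.5% held CCAAT. The window before Tipinl1 was 34.4% G and C, against 56.4% before Tipin and a median of 60.4% over these promoters. A match describes the letters only and does not show that a factor binds.

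The Tipin row was assigned few reads, with a normalized count of 109 and 122 in siScramble cells, and of 158 and 209 in siTbk1 cells. This value depends on how reads were divided with Tipinl1, as described below, and does not give the level of Tipin mRNA. Both siTbk1 samples lay above both siScramble samples, although they also differed from each other more than the siScramble samples did. The group means were 115 ± 9.4 and 183 ± 36 (SD, n = 2), and Tipin was called higher with a log2 fold change of 0.66 (SE 0.17, 95% interval 0.29 to 1.04, adjusted p = 0.0070). This call rested on single libraries. Without siTbk1 replicate 3 the log2 fold change was 0.46 (adjusted p = 0.075), and without siScramble replicate 2 it was 0.58 (adjusted p = 0.015), just under 1.5-fold.

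The Tipinl1 row was assigned most of the reads of the pair, and which gene these reads came from was not tested. The normalized count of Tipinl1 measured 1458 and 1382 in siScramble cells, and 2498 and 2699 in siTbk1 cells. The groups were far apart beside the spread within them, with means of 1420 ± 54 and 2598 ± 142 (SD, n = 2). Tipinl1 was called higher with a log2 fold change of 0.87 (SE 0.066, 95% interval 0.73 to 1.01, adjusted p = 2.3e-06). It stayed called in all 20 alternatives, between 0.81 and 0.97 on the log2 scale. Among these, the same fit without a fold change limit could not have removed the call.

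The counts of both rows had fractional parts in all 4 libraries, as happens when a read that matches several places is divided among them. The summed count of Tipin and Tipinl1, however, was whole in every library within 0.012 of a count, namely 1746 and 1382 in siScramble cells and 2898 and 2546 in siTbk1 cells. Of the 2029 rows that were fractional in all libraries by more than 0.02, no row other than Tipinl1 gave whole sums with Tipin. The sum of both rows therefore does not depend on how the reads were divided between them, whereas each row's own value does.

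As a sum, the pair had a normalized count of 1567 and 1504 in siScramble and of 2656 and 2908 in siTbk1. It was called higher by 1.81-fold, a log2 fold change of 0.86 (SE 0.066, 95% interval 0.71 to 1.00, adjusted p = 2.6e-06). The call held in all 20 alternatives, with log2 fold changes between 0.79 and 0.91. Here too, dropping the fold change limit could not have removed it. The share of the summed count that was assigned to Tipin was 6.93% (exact Clopper-Pearson 95% interval 5.78 to 8.22) and 8.10% (6.72 to 9.67) in siScramble replicates 2 and 3. In siTbk1 replicates 2 and 3 it was 5.94% (5.10 to 6.86) and 7.19% (6.21 to 8.26). These intervals treat the rounded assigned counts as reads of known origin. They therefore leave out the uncertainty of dividing shared reads and any variation between samples. The mean share was 7.52 ± 0.83% in siScramble and 6.56 ± 0.89% in siTbk1 (SD, n = 2), a difference of −0.956 percentage points, with overlapping groups. A two-sided exact permutation test gave p = 0.667, but as 0.333 is the smallest p this design allows, it cannot show whether the share changed.

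**Figure D2:**
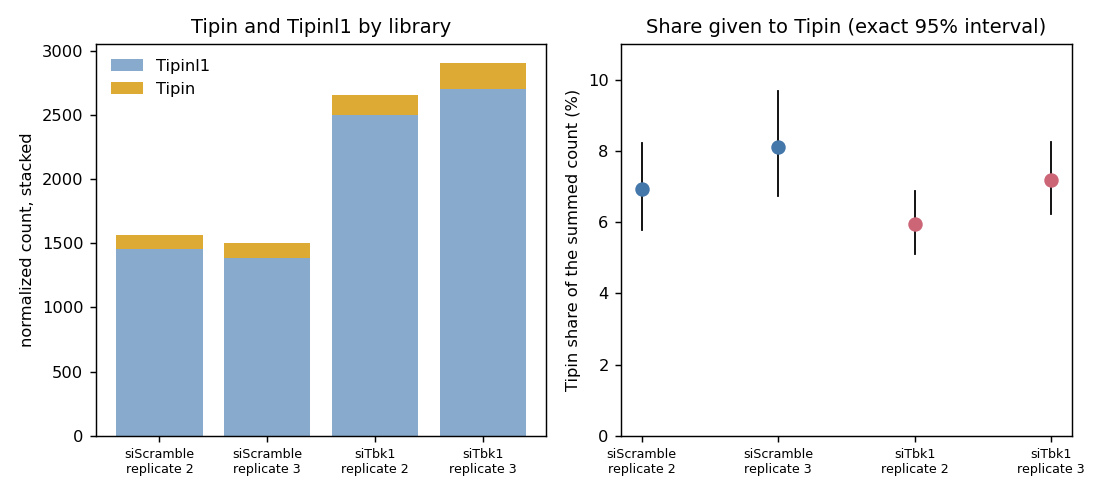
Left, normalized counts of Tipinl1 and Tipin stacked for each of the 4 libraries. Right, the percentage of their summed count assigned to Tipin, with exact 95% binomial intervals. The stacked total rises from 1567 and 1504 to 2656 and 2908 while Tipin's share stays between 5.94% and 8.10%.

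Of 9130 genes that averaged 10 CPM or more, the 3 whose values over the 4 samples were most like those of the summed pair were Cpne8, AC109958.1 and Wee1. Likeness was the root mean square distance between centred log2 CPM values, which was 0.0141, 0.0188 and 0.0227 respectively. Their log2 fold changes were 0.88, 0.87 and 0.87. With 4 samples in 2 groups this mostly ranks genes by the size of their change. Wee1 encodes the kinase that holds CDK1 and CDK2 inactive, and Cpne8 encodes a copine, a calcium-dependent membrane-binding protein.

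Timeless, which lies at chr7:2643288-2667629 on the plus strand and encodes the partner of TIPIN, changed little beside Tipin and Tipinl1. Its normalized count measured 2262 and 2214 in siScramble cells, and 2439 and 2497 in siTbk1 cells. The siTbk1 samples were both higher and the groups did not overlap. The log2 fold change was 0.14 (SE 0.059, 95% interval 0.013 to 0.27) and did not pass the adjusted test (adjusted p = 0.064). The interval for Timeless ended at 0.27, below the 0.71 at which that of the summed Tipin pair began, though the difference between the genes was not tested.

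Clspn encodes claspin, the adaptor through which ATR reaches checkpoint kinase 1, and lies at chr5:144581427-144616336 on the plus strand. Its normalized count measured 2542 and 2316 in siScramble cells, and 2633 and 2501 in siTbk1 cells. The groups overlapped, since siTbk1 replicate 3 lay below siScramble replicate 2. The log2 fold change was 0.080 (SE 0.065, 95% interval −0.062 to 0.22, adjusted p = 0.34). The row had fractional counts in all 4 libraries, and no single row of the table completed them to whole numbers.

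Wdhd1 encodes AND-1, which links the replicative helicase to DNA polymerase α, and lies at chr15:24021674-24056074 on the minus strand. The normalized count measured 1880 and 1920 in siScramble cells, and 2013 and 2121 in siTbk1 cells, with both siTbk1 samples higher. The log2 fold change was 0.12 (SE 0.062, 95% interval −0.013 to 0.26, adjusted p = 0.12). For Timeless, Clspn and Wdhd1 the upper limits of the intervals lay between 0.22 and 0.27, below the 1.5-fold limit, which does not show that they were unchanged.

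Atr, the checkpoint kinase itself, rose. It lies at chr8:103673411-103770948 on the plus strand, spans 97538 bases and had whole counts in all libraries. Its normalized count measured 1314 and 1266 in siScramble cells, and 1694 and 1827 in siTbk1 cells. Both siTbk1 samples were higher than both siScramble samples by more than the spread within either group. The log2 fold change was 0.45 (SE 0.068, 95% interval 0.30 to 0.59, adjusted p = 0.00021), a 1.36-fold rise that stays under the 1.5-fold limit. It lay between 0.34 and 0.49 in the 20 alternatives.

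Atrip, which encodes the partner that brings ATR to damaged DNA, fell as a row of its own. It lies at chr8:117797842-117811976 on the minus strand. The normalized count measured 251 and 304 in siScramble cells, and 177 and 187 in siTbk1 cells, and the siTbk1 samples were both lower. The means were 277 ± 37 and 182 ± 7.4 (SD, n = 2), with a log2 fold change of −0.60 (SE 0.13, 95% interval −0.90 to −0.31, adjusted p = 0.0028), which is a called change at 0.658 of the control level. Without siScramble replicate 3 the log2 fold change was −0.47 and without siTbk1 replicate 2 it was −0.57, and in both Atrip was no longer called. With the trend of each library along genomic span removed, it stood at −0.55 and was not called.

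The Atrip counts were fractional in all 4 libraries, and 1 other row completed them to whole numbers within 0.0007 of a count. This was LOC100911807, an entry on the same strand at chr8:118428289-118436895, whose identity was not resolved here. Its own normalized count measured 57.4 and 46.8 in siScramble cells, and 81.6 and 48.0 in siTbk1 cells. The log2 fold change was 0.33 (SE 0.27, adjusted p = 0.35), and −0.14 without siTbk1 replicate 2. Summed, Atrip and LOC100911807 had a normalized count of 309 and 350 in siScramble and of 258 and 235 in siTbk1, still without overlap. The sum fell with a log2 fold change of −0.41 (SE 0.12, 95% interval −0.67 to −0.15, adjusted p = 0.013), 0.753 of the control level, which is under the 1.5-fold limit. Without siScramble replicate 3 the sum did not pass the test at −0.32 (adjusted p = 0.094), nor without siTbk1 replicate 3 at −0.35 (adjusted p = 0.065). The size of the Atrip fall thus depends on how reads shared with LOC100911807 were divided, and this comparison was added after the values were seen.

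A gene on the same strand next to Atrip moved the same way, and it is named after its values were seen. Trex1, which encodes a DNA exonuclease of the cytosol, lies 413 bases from Atrip, at chr8:117796128-117797428. Its counts were whole, and its normalized count measured 203 and 211 in siScramble cells against 106 and 107 in siTbk1 cells. It was called lower with a log2 fold change of −0.95 (SE 0.14, adjusted p = 0.00020). Atrip also overlaps LOC100911725 on the opposite strand over all its 14135 bases. The unscaled count of LOC100911725 was 447 and 392 in siScramble and 373 and 252 in siTbk1. Whether the counting used strand is not given in the sources used here, and the part of LOC100911725 in the Atrip counts was not tested.

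**Figure D3:**
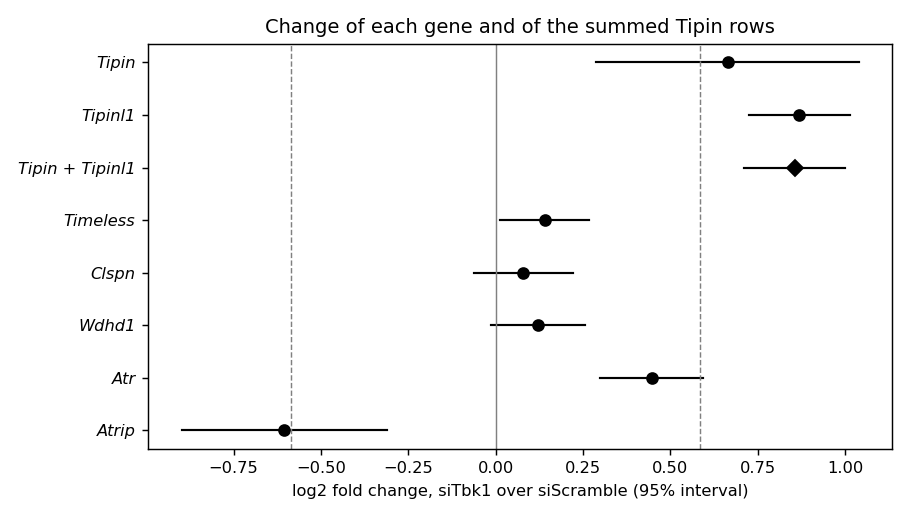
Log2 fold change of siTbk1 over siScramble (horizontal axis) for each gene, with its 95% interval, and a diamond for the summed Tipin rows. Dashed lines mark 1.5-fold. The intervals of Tipinl1 and of the sum lie wholly above 1.5-fold, those of Clspn and Wdhd1 include 0, and that of Atrip as its own row lies below 0.

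The genes around this pathway were read from lists written with earlier results of these data known, so their counts are a description. Together the 8 lists held 119 tested genes, of which 2 were called higher and 1 lower, 54 rose and 21 fell by adjusted p, and the median log2 fold change was 0.12. Over all tested genes 4.81% were called higher and 6.18% lower, while 24.4% rose and 24.8% fell by adjusted p. Prim2, Pola1, Mcm4, Mcm5, Rpa3, Ccna2, Usp20, Stag1, Stag2, Hltf, Cdkn1a, Atm and Nr1d2 had fractional counts in at least 1 library. How the division of shared reads bears on their changes was not tested.

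The ATR activation list holds RPA, the 9-1-1 clamp, its loader and the activators of ATR. Of 11 tested genes 5 rose, none fell and 6 did not pass, with a median log2 fold change of 0.14 and a range from −0.29 to 0.42. None was called. Rpa3, the smallest subunit of RPA, rose by 0.42 (SE 0.069, adjusted p = 0.00039) and Etaa1, an ATR activator bound to RPA, by 0.37 (SE 0.077, adjusted p = 0.0018). Topbp1, the other activator, which is named after its values were seen, had a log2 fold change of 0.14 (adjusted p = 0.071). The count of genes that rose was 2 without siScramble replicate 3, 3 without siTbk1 replicate 2 and 3 without siTbk1 replicate 3, and 1 fell without siScramble replicate 2, with library size alone as scaling and with crossed replicate pairs as a block.

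Among the targets of checkpoint kinase 1 and the genes of mitotic entry, 5 of 9 tested genes rose, 1 fell and 3 did not pass, with a median of 0.14. Wee1 was the 1 gene called, with a normalized count of 2478 ± 127 in siScramble and 4399 and 4700 in siTbk1 replicates 2 and 3, and a log2 fold change of 0.87 (SE 0.062, adjusted p = 1.5e-06). The cyclin genes Ccna2 and Ccnb1 rose by 0.40 (adjusted p = 0.00020) and 0.23 (adjusted p = 0.0043). The gene that fell was Pkmyt1, the other inhibitory kinase of CDK1, at −0.52 (SE 0.14, adjusted p = 0.0074), and the 3 phosphatase genes Cdc25a, Cdc25b and Cdc25c, which claspin-dependent signalling restrains, did not pass, at −0.0072, −0.13 and 0.0083. Pkmyt1 was called lower without siScramble replicate 2 (−0.71) and without siTbk1 replicate 2 (−0.70). Over the 20 alternatives it ranged from −0.71 to −0.31. The sign of Cdc25a and Cdc25c changed between alternatives. Pkmyt1 and the Cdc25 genes are named after their values were seen.

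Claspin protein is destroyed through ubiquitin ligases and spared by ubiquitin proteases. Of 10 tested genes of this turnover 3 rose, 4 fell and 3 did not pass, with a median of −0.095. Fzr1, the CDH1 activator of the anaphase-promoting complex, was called lower at −0.61 (SE 0.082, adjusted p = 9.2e-05). It was not called without siScramble replicate 3 (−0.53), without siTbk1 replicate 3 (−0.55) or with the genomic span trend removed (−0.55), and in the last of these 1 gene of the list rose. The ubiquitin protease genes of the list differed in direction, with Usp20 at −0.47 (adjusted p = 0.00030) and Usp7 at 0.28 (adjusted p = 0.00089). Usp20 was called at −0.59 without siTbk1 replicate 2, and over the 20 alternatives ranged from −0.59 to −0.37. Usp29 fell by 0.23 (adjusted p = 0.0068) and Usp28 did not pass, at 0.14 (adjusted p = 0.15), both named after their values were seen.

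The replisome list held 32 tested genes, of which 10 rose, 9 fell and 13 did not pass, with a median of 0.072. Prim2, the large subunit of primase, was called higher with a normalized count of 613 ± 13 in siScramble and 1217 and 1183 in siTbk1 replicates 2 and 3, a log2 fold change of 0.97 (SE 0.074, adjusted p = 2.4e-06). Pola1, the catalytic subunit of the polymerase that primase serves, rose by 0.37 (adjusted p = 0.00016). Pold2, a subunit of the lagging strand polymerase δ, fell by 0.58 (adjusted p = 0.00022), and over the 20 alternatives ranged from −0.69 to −0.48. Of the 6 subunits of the MCM helicase, named after their values were seen, 5 fell. The log2 fold change was −0.36 for Mcm2, −0.22 for Mcm5, −0.20 for Mcm3, −0.14 for Mcm6 and −0.13 for Mcm7, and 0.084 for Mcm4, which did not pass. These 5 were below 0 in every alternative, but 2 passed without siTbk1 replicate 3, and 3 passed without siScramble replicate 2, without siScramble replicate 3 and with the genomic span trend removed. The count of replisome genes that rose was 6 without siTbk1 replicate 3, and Pold2 was called lower without siScramble replicate 2 (−0.67), without siTbk1 replicate 2 (−0.69) and with library size alone as scaling (−0.62).

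TIMELESS, TIPIN, claspin and AND-1 also help to hold sister chromatids together behind the fork. Of 16 tested cohesion genes 11 rose, 1 fell and 4 did not pass, with a median of 0.21, and none was called. The alternative cohesin subunits Stag1 and Stag2 rose by 0.49 (SE 0.060, adjusted p = 5.6e-05) and 0.46 (SE 0.060, adjusted p = 7.6e-05). The gene that fell was Chtf18, a subunit of the clamp loader of cohesion, at −0.50 (adjusted p = 0.00087), named after its values were seen. Chtf18 was called at −0.60 without siScramble replicate 2 and without siTbk1 replicate 2, and over the 20 alternatives ranged from −0.60 to −0.41. Without siScramble replicate 3 the number that rose was 6.

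Among genes that remodel or protect stalled forks, 12 of 18 tested genes rose, 1 fell and 5 did not pass, and none was called. The median of 0.24 was the highest of the lists. Hltf, a fork-reversing translocase, rose by 0.57 (SE 0.062, adjusted p = 2.6e-05), and Fanci, a partner of FANCD2, by 0.54 (SE 0.059, adjusted p = 2.8e-05). Slx4, a scaffold of nucleases, was the gene that fell, at −0.49 (adjusted p = 0.00018), named after its values were seen. When the trend of each library with genomic span was removed, 7 of these genes rose in place of 12, and without a library the number lay between 8 and 12. Hltf was called without siScramble replicate 2 (0.64) and without siTbk1 replicate 2 (0.59). Over the 20 alternatives it ranged from 0.48 to 0.64.

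In the ATM arm, which answers double-strand breaks in parallel to ATR, 6 of 12 tested genes rose, none fell and 6 did not pass, with a median of 0.20. Cdkn1a, the CDK inhibitor p21, and the kinase gene Atm both rose by 0.32 (SE 0.059 and 0.066, adjusted p = 0.00074 and 0.0018), and none of the list was called. In 5 alternatives 1 gene of the list fell, namely without siScramble replicate 2, without siTbk1 replicate 2, with library size alone, with crossed replicate pairs as a block and with the genomic span trend removed.

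**Figure D4:**
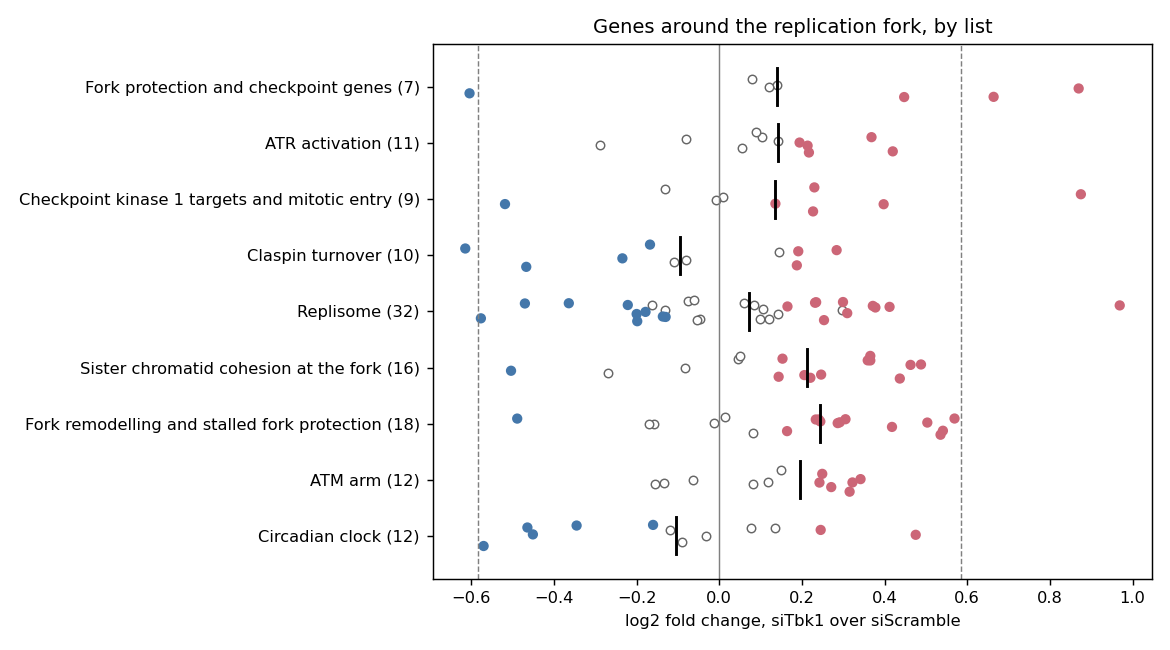
Log2 fold change of siTbk1 over siScramble (horizontal axis) of each tested gene in the fork protection and checkpoint set and in the 8 lists, with the number of tested genes in parentheses. Filled points passed adjusted p under 0.05 (red higher, blue lower), open points did not, black bars are medians and dashed lines mark 1.5-fold. The medians lie between −0.11 for the circadian clock and 0.24 for fork remodelling.

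**Figure D5:**
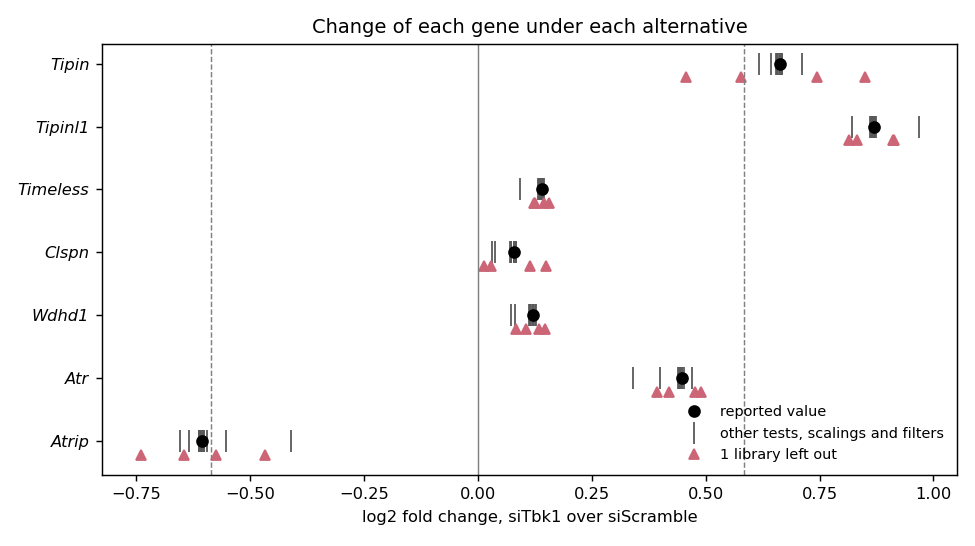
Log2 fold change of each gene as reported (black points), under 16 other tests, scalings, filters and ways of counting (grey ticks) and with 1 library left out (triangles). Dashed lines mark 1.5-fold. Tipinl1 stays beyond 1.5-fold throughout, Tipin and Atrip lie on either side of the limit, and no gene changes sign.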

How the data were processed

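RNA from INS-1 832/13 cells was sequenced by the authors from stranded poly(A) libraries. The submitters' processing notes name STAR 2.6.1d, Partek and the build rn6, and the method of counting is not given in the sources used here. The authors deposited estimated counts per gene without scaling between samples, and 25.8% of genes have a value more than 0.01 from a whole number. All 4 columns of values were used. The 8 gene names and the lists were chosen with earlier results of these data known. Counts were rounded, filtered with filterByExpr of edgeR 4.0.16 (minimum count 10, 1219 genes removed), scaled by TMM (factors 0.982 to 1.02) and compared with the quasi-likelihood test on treatment alone, using R 4.3.3. Each standard error was derived from the F statistic of the test. At these depths 3 counts equal 0.0628 to 0.0781 CPM, and the 2 samples per group limit every comparison. The replicates of a group were not 1 library deposited again, as their counts differed by more than sampling noise (chi-square per degree of freedom 6.74 and 6.69).

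All listed genes are named, and from each list the called genes and the 2 others with the smallest adjusted p, other genes being marked in the text. The fit was tested on simulated data with 200 changed genes. Alternatives used DESeq2 1.42.0 and limma 3.58.1, and figures Python 3.11.15 and matplotlib 3.10.9. The crossed pairing, the sum of Atrip with LOC100911807 and the list counts and other named genes under each alternative were added after the data were seen. Promoter sequences are from RefSeq (GRCr8), where all 7 gene names were found. No gene coordinates were converted between builds.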

Additional observations from a re-analysis of the deposited data

How the results depend on the processing

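The 20 alternatives were 16 other tests, scalings, filters or ways of counting and 4 fits without a library. None of the 7 genes, the summed pair or the named genes said to have risen or fallen changed direction in them. The signs that did change belonged to Cdc25c (−0.039 with library size alone, −0.043 to 0.045 without a library), Cdc25a (0.023 with the span trend removed, −0.039 to 0.012 without a library), the β-cell marker Chga (0.055 with the span trend removed, −0.074 to 0.034 without a library) and LOC100911807 (−0.14 to 0.64 without a library), none of which passed the test as reported. The median of all genes, 0.0071 as reported, was also below 0 in some settings. The 671 genes called higher and 862 called lower became 3405 and 3459 with no fold change limit, and 163 and 101 when tested against 1.5-fold with glmTreat, where Tipinl1 and the summed pair stayed called and Tipin and Atrip did not, leaving 1 gene of the set higher and 0 lower. Of the list genes, Wee1 and Prim2 passed glmTreat. In 2 further settings the set had 0 genes lower, with the genomic span trend removed, where Atrip stood at −0.55, and with Atrip and LOC100911807 summed, where it stood at −0.41. With no fold limit Atr was called too, so that 3 of the set were higher. Without a library, the genes called higher numbered 552 to 756 and those called lower 574 (without siScramble replicate 3) to 1159, the set had 1 to 2 higher and 0 to 1 lower, Tipin lay between 0.46 and 0.85, Atrip between −0.74 and −0.47 and the summed pair between 0.79 and 0.91. Where an arm is left with 1 sample, it is assumed to vary like the others. With library size alone as scaling, 551 genes were called higher and 1063 lower, so that 34.1% of calls were higher, against 43.8% as reported, and the median of all genes was −0.040 on the log2 scale. DESeq2 called 495 and 738 genes, with 1082 adjusted p-values not given. The cause of these shifts was not tested, apart from what a stricter or looser limit does by construction. Samples with the same replicate number did not deviate together from their group means (Pearson r = 0.0041 and Spearman rho = −0.20 across 13953 genes). Across the 7945 genes of at least 4 log2 CPM r was −0.39, so there they tended to deviate in opposite directions, genes not being independent. The number was therefore not taken as a pairing. For each gene of the set the log2 ratio of siTbk1 to siScramble was further from 0 in replicate 3 than in replicate 2. The ratio in replicates 3 and 2 was 0.97 and 0.78 for Tipinl1, 0.53 and 0.37 for Atr, and −0.70 and −0.51 for Atrip. Gcg went the other way, at −0.58 and −0.77, and the source of these differences was not tested. With the replicate number as a block, 699 genes were called higher and 898 lower, 2 and 1 of the set were called as before, the summed pair stood at 0.85, and 3 MCM genes fell in place of 5. Crossed pairs as a block gave 648 and 872 calls, with Timeless passing at an adjusted p of 0.023.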

Other observations

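Timeless takes its name from a clock gene of flies, and the core circadian clock genes were therefore read as a list too. Of 12 tested clock genes 2 rose, 5 fell and 5 did not pass, while 24.4% of all tested genes rose and 24.8% fell. None was called, and the median log2 fold change was −0.11, beside 0.0071 over all tested genes. Per1, a repressor of the clock, stood nearest to the 1.5-fold limit at −0.57 (SE 0.075, adjusted p = 8.6e-05), with a normalized count of 1233 ± 57 in siScramble and 858 and 800 in siTbk1 replicates 2 and 3. It was called without siScramble replicate 2 (−0.62), without siTbk1 replicate 2 (−0.64) and with library size alone (−0.62). Over the 20 alternatives Per1 ranged from −0.64 to −0.49. Nr1d2, which encodes REV-ERBβ, rose by 0.48 (SE 0.070, adjusted p = 0.00017). Without siScramble replicate 3, without siTbk1 replicate 3 and with DESeq2, 3 clock genes fell in place of 5.

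Of the 12 β-cell markers 3 rose, 6 fell and 3 did not pass, beside 24.4% of all tested genes that rose and 24.8% that fell. The insulin genes Ins1 and Ins2 were called lower with log2 fold changes of −0.64 (adjusted p = 5.7e-05) and −0.67 (adjusted p = 7.8e-05), but neither was called without siTbk1 replicate 3 (both −0.51) or with the genomic span trend removed (−0.53 and −0.56). Iapp, the gene of the hormone amylin, rose by 0.38 (adjusted p = 0.00018), Pcsk1, a prohormone convertase, by 0.27 (adjusted p = 0.0012) and the transcription factor gene Nkx6-1 by 0.23 (adjusted p = 0.017). Gcg, from the list of other cell types, was called lower at −0.68 (adjusted p = 4.7e-06).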
